A study of Mus musculus with 11 samples.

Results

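Hearts of obese mice treated with a senolytic cocktail were compared with hearts of mice on a control diet, to ask which differences from lean hearts were present after treatment. The comparison used 7 of the 11 RNA-seq libraries of the series, chosen by their group labels: 3 from treated obese mice and 4 from control-diet mice. All mice were female C57BL/6NTac, an inbred strain, and were 8 weeks old when a 24-week feeding period began. The control diet drew 10.4% of its energy from fat. The obesogenic regimen paired sweetened condensed milk with a solid diet that drew 60.3% of its energy from fat. Treated obese mice were gavaged with dasatinib (5 mg/kg) and quercetin (50 mg/kg) in 10% PEG400 from week 16 onwards, on 3 days of each week. The labels mention no gavage of control-diet mice, so diet, gavage, vehicle and cocktail cannot be told apart here. Hearts of obese mice given vehicle alone, the remaining 4 libraries, were not compared. They did enter the choice of genes to test, the scaling of the libraries and the spread of the statistical model. Nothing in the labels says whether libraries came from separate animals. The p-values below therefore measure only how far libraries differ, and part of that may be technical.

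Dasatinib inhibits tyrosine kinases such as those of the SRC family, quercetin is a plant flavonoid, and together they are given to kill senescent cells, which have left the cell cycle for good and resist cell death. The heart makes most of its ATP by burning fatty acids in mitochondria. Many genes of that pathway are switched on by the nuclear receptor PPAR-alpha when fatty acids are abundant, and pyruvate dehydrogenase kinases close the gate through which carbohydrate carbon enters the citric acid cycle. Heart muscle also has its own circadian clock, in which ARNTL and CLOCK activate the period and cryptochrome genes that later repress them.

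Total counts ran from 73.1 to 103.3 M in control libraries and from 64.2 to 72.3 M in treated libraries (2-sided exact permutation p = 0.0571, adjusted p = 0.137 over 18 library measures). Genes of the mitochondrial chromosome took 28.2% to 32.3% of the counts in control libraries and 17.8% to 22.4% in treated libraries, without overlap (exact permutation p = 0.0286, the smallest that 4 against 3 libraries allow, and adjusted p = 0.129). Genes annotated as sense-intronic or as still to be experimentally verified (TEC), called the intronic share below, took 0.286% to 0.590% of control counts and 0.509% to 0.671% of treated counts (exact permutation p = 0.114, adjusted p = 0.137). Levels are given as CPM, counts scaled to a common library total. Ventricular cardiomyocyte markers were abundant in every library: all 10 were tested, and together they held 29834 to 42944 CPM in control libraries and 29426 to 35086 CPM in treated libraries. None of the defining ventricular genes was missing, so the labelled tissue and its markers went together.

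The treated libraries were not alike in the other cell types they held. All 12 atrial myocyte markers were tested, and their summed level was 767.1 to 1143 CPM in control libraries, 780.5 CPM in treated replicate 1, 5675 CPM in treated replicate 2 and 9059 CPM in treated replicate 3. Summed levels of 10 mesothelial and epicardial markers, genes of the outer lining of the heart, were 6.52 to 11.7 CPM in control libraries and 12.8, 116.5 and 71.7 CPM in treated replicates 1, 2 and 3. The 11 conduction system markers summed to 90.3 to 107.8 CPM in control libraries and to 112.0, 292.1 and 346.4 CPM in the treated libraries in the same order. Treated replicates 2 and 3 thus stood apart from treated replicate 1 and from all control libraries in these lists. In RNA from whole tissue, more cells of a type and more RNA per cell cannot be told apart.

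**Figure D1:**
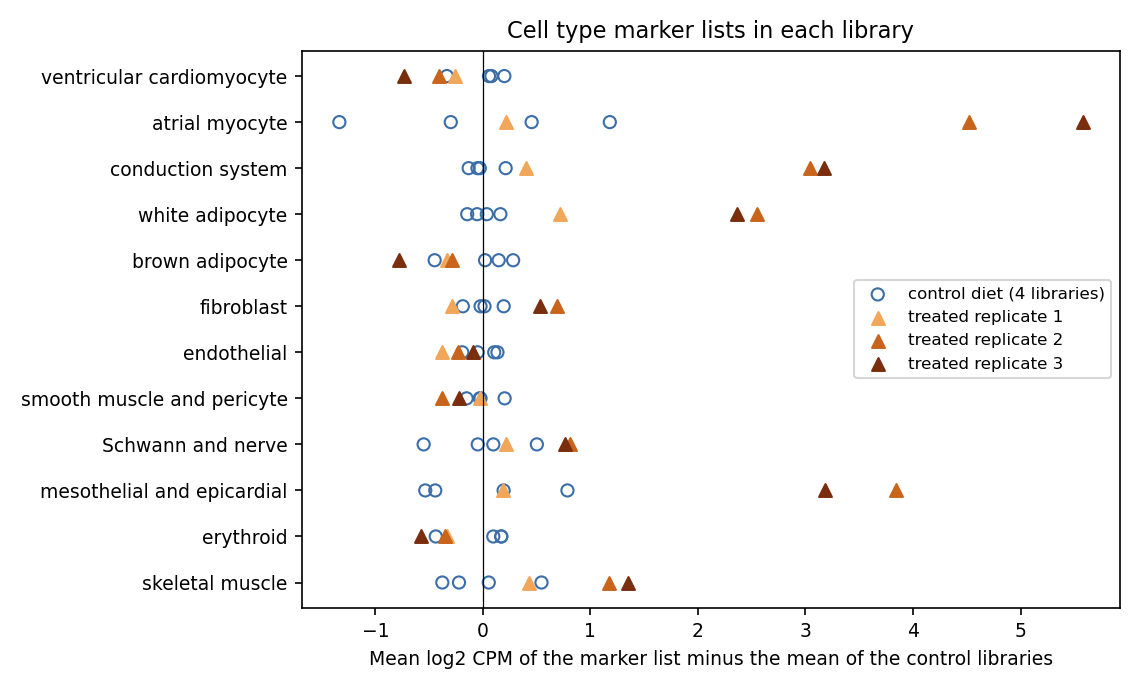
Mean log2 CPM of 12 lists of cell type markers, each as the difference from the mean of the control libraries (x axis, log2 units), for 4 control libraries (open circles) and 3 treated libraries (triangles). Treated replicates 2 and 3 lie more than 3 log2 units to the right for atrial and mesothelial markers, while treated replicate 1 lies within the control range for both.

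Of 23779 genes tested, 3760 (15.8%) differed between treated obese and control-diet hearts at an adjusted p under 0.05 in edgeR's quasi-likelihood test. Of these, 1766 rose (7.43% of the genes tested) and 1994 fell (8.39%) in treated hearts. Rises were larger than falls: 945 genes rose and 346 fell at least 2-fold, and 289 rose and 56 fell at least 4-fold. All treated libraries lay above or all lay below all control libraries for 6625 genes (27.9%). The 95% interval of the difference lay within 1.5-fold in both directions for 5674 genes (23.9%). For 14447 genes (60.8%) the test made no call and the interval reached beyond 1.5-fold, so a missing call there does not show that levels were alike. Protein-coding genes had a median log2 fold change of -0.04, with 1226 rises and 1856 falls among 15644 tested. The median was 0.32 in 1850 TEC genes (161 rises, 16 falls) and 0.35 in 1578 antisense genes (125 rises, 11 falls).

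The count of calls depended on single libraries. It was 1011 without treated replicate 3, 1816 without control replicate 4, 1857 without control replicate 1 and 2473 without control replicate 3. With treated replicate 1 as the only treated library, its spread taken from the other groups, 218 genes were called. With the intronic share as a covariate 510 were called. Every gene called in these fits and in the first one had the same direction in both.

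**Figure D2:**
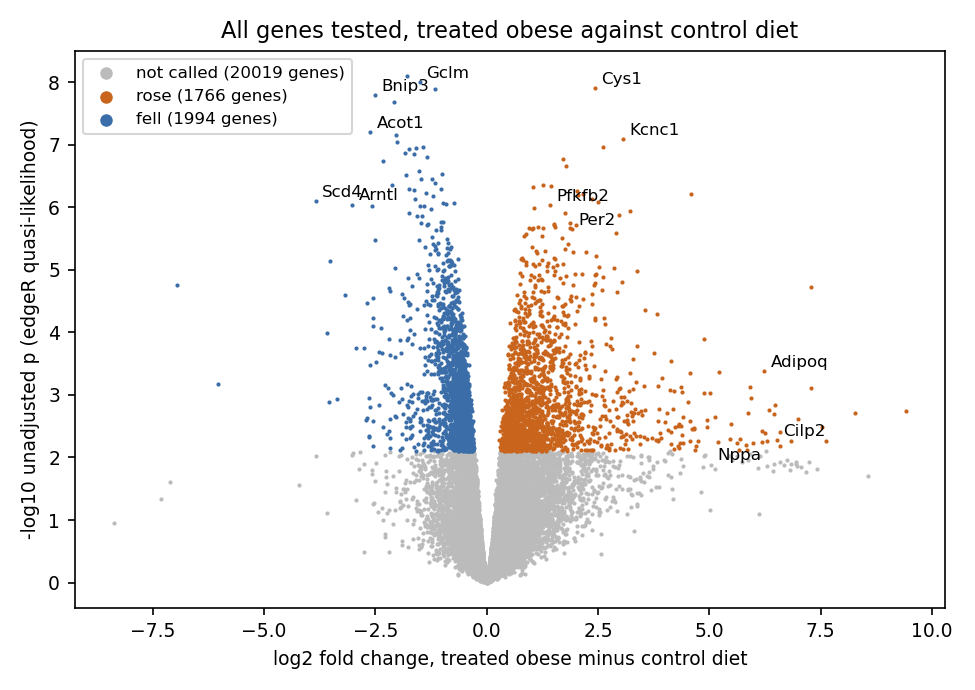
Each of the 23779 genes tested by its log2 fold change, treated obese minus control diet (x axis), and its -log10 unadjusted p in edgeR's quasi-likelihood test (y axis). Orange points are the 1766 genes that rose and blue points the 1994 that fell. Labels mark 12 genes described in the text, and of these 12 Gclm, Cys1 and Bnip3 have the smallest p-values, while the atrial gene Nppa lies far to the right with a larger p.

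Most fuel genes that changed fell in treated hearts, among them most of the tested targets of PPAR-alpha. Pdk4, the pyruvate dehydrogenase kinase most responsive to fasting and fat, was at 2498, 2141, 2495 and 2851 CPM in control replicates 1 to 4 and at 979, 434 and 610.3 CPM in treated replicates 1 to 3, the order kept for all values below. It fell 3.702-fold (log2 fold change -1.89, SE 0.32, adjusted p = 0.00366). Acot1, a cytosolic thioesterase that splits long-chain acyl-CoA, was at 102, 97.3, 109 and 137 CPM in control and 25.7, 15.2 and 13.7 CPM in treated libraries and fell 6.11-fold (log2 fold change -2.61, SE 0.24, adjusted p = 0.0002). Its mitochondrial relative Acot2 went from 303, 219, 266 and 383 CPM to 68.8, 62.8 and 43.7 CPM, 5.01-fold lower (log2 fold change -2.33, SE 0.24, adjusted p = 0.000228). No treated library reached the lowest control library in any of these genes, as for 14.1% of all genes tested. For Acot1 this was required by the rule for naming genes, described under data processing. Acot1 and Acot2 are close copies of each other, and the sources used here do not say how reads shared by both were counted. Cd36, the main fatty acid transporter of the cell membrane, was at 2510.3, 2099, 2113 and 2706 CPM in control and 846, 848 and 625 CPM in treated libraries (log2 fold change -1.61, SE 0.18, adjusted p = 0.000425). It was lower in each treated library than in every control library. Angptl4, a secreted inhibitor of lipoprotein lipase, fell 5.34-fold (adjusted p = 0.00707). Among 25 tested PPAR-alpha targets, 18 fell and 0 rose. Their median log2 fold change was -0.93, against 0.05 over all genes tested. The receptor gene itself, Ppara, had a log2 fold change of 0.14 and was not called (adjusted p = 0.688; chosen after its value was seen).

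**Figure D3:**
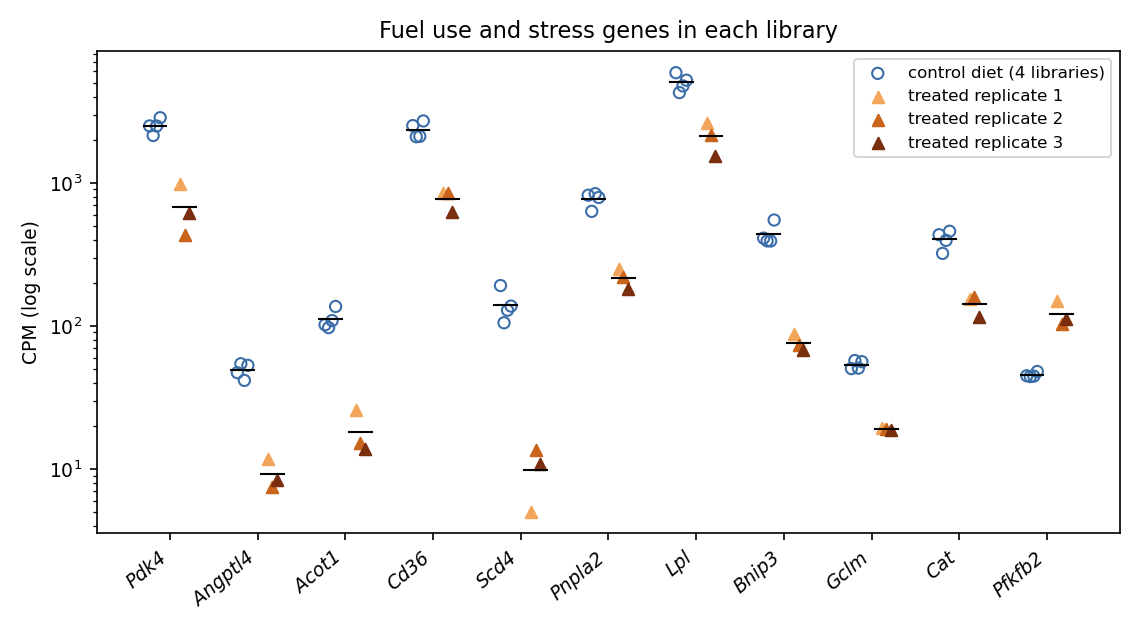
CPM on a log axis of 11 genes of fuel use and stress defence in 4 control libraries (open circles) and treated replicates 1 to 3 (triangles), with bars at the group means. The first 10 genes are lower in every treated library than in every control library, with Scd4 falling from 141 to 9.86 CPM in the mean, and Pfkfb2 is higher.

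Most enzymes of mitochondrial beta-oxidation fell as well. Of 25 tested, 20 fell and 0 rose, with a median of -0.85. Decr1, which prepares unsaturated fatty acids for oxidation, was at 305, 194, 268 and 321 CPM in control and 136, 138 and 95.7 CPM in treated libraries (log2 fold change -1.14, SE 0.23, adjusted p = 0.00713). Acsl1, the main cardiac acyl-CoA synthetase, fell 2.097-fold, Eci2, an enoyl-CoA isomerase, 1.75-fold, and the long-chain dehydrogenase Acadl 1.89-fold (adjusted p from 0.00426 to 0.00643 for these genes). Downstream of them, 11 of 22 citric acid cycle genes fell and 0 rose (median -0.60), led by Sucla2, a subunit of the ATP-forming succinyl-CoA synthetase, at -1.03 (adjusted p = 0.00604). Of 68 nuclear genes for respiratory chain subunits, 26 fell and 0 rose (median -0.55). Uqcrb of complex III fell 1.97-fold, Ndufs4 of complex I 1.64-fold and Atp5c1 of the ATP synthase 1.76-fold. All 13 mRNAs of the mitochondrial chromosome fell (median -0.94), with mt-Nd3 at -1.22 and mt-Co1 at -1.14. Its other genes did not share this: the 2 rRNA genes had a median of 0.98 and 0 were called. Of its 22 tested tRNA genes 1 fell and 0 rose (median 0.08). Mitochondrial genes have nuclear copies that could share reads with them. Tfam, which packages and transcribes mitochondrial DNA, was at 17.6, 14.1, 14.8 and 21.4 CPM in control and 9.91, 11.03 and 9.59 CPM in treated libraries and fell 1.67-fold (adjusted p = 0.0117). Leaving out 1 library ended some of these calls. Calls were lost for Uqcrb, Ndufs4 and Tfam without treated replicate 3, and for Atp5c1 without control replicate 1 or 4 or treated replicate 3 (adjusted p up to 0.101).

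These list counts moved with single libraries and with the intronic share. Without treated replicate 3, 11 PPAR-alpha targets, 4 beta-oxidation genes, 1 citric acid cycle gene, 0 nuclear respiratory chain genes and 6 mitochondrial mRNAs were called. With the intronic share as a covariate, the counts were 8, 0, 0, 0 and 1 in the same order, and the medians were -0.80, -0.46, -0.22, -0.10 and -0.61. With treated replicate 1 as the only treated library they were 4, 0, 0, 0 and 0, with medians of -0.68, -0.65, -0.46, -0.41 and -0.75. Measured against the control means, the median PPAR-alpha target was at -0.748, -0.996 and -1.30 log2 units in treated replicates 1, 2 and 3. The median nuclear respiratory chain gene was at -0.40, -0.39 and -0.82. Of the 68 respiratory chain genes, 40 lay within the control range in treated replicate 1, 40 in treated replicate 2 and 3 in treated replicate 3. Treated replicate 3 was the lowest in both lists.

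Genes that store and release fat went in both directions. Pnpla2, which encodes adipose triglyceride lipase, the first enzyme of droplet lipolysis, was at 819, 632, 840.0 and 790.0 CPM in control and 249, 219.5 and 180.3 CPM in treated libraries, 3.56-fold lower (log2 fold change -1.83, SE 0.18, adjusted p = 0.000208). Plin2, a coat protein of droplets in muscle and liver, fell 2.89-fold, Lpl, which frees fatty acids from circulating lipoproteins, 2.39-fold, and Lipe, hormone-sensitive lipase, 1.79-fold (adjusted p from 0.0003 to 0.00698). In all, 10 of 20 tested droplet and lipase genes fell and 3 rose. The rises included Plin1, at 4.06, and Cidec, at 4.66, droplet proteins of fat cells that also belong to the adipocyte markers described below (named after their values were seen). Scd4, a stearoyl-CoA desaturase of the heart (chr19:44333092-44346743, GRCm38), had the largest fall of any gene that the naming rule took. It was at 191, 105, 129 and 138 CPM in control and 5.04, 13.7 and 10.9 CPM in treated libraries, 14.3-fold lower (log2 fold change -3.83, SE 0.39, adjusted p = 0.000447), and Scd genes are similar enough to share reads. Of 27 genes of fatty acid and triglyceride synthesis, 6 fell and 1 rose. They included malic enzyme Me1, 1.98-fold lower, the acyltransferases Agpat3, 1.702-fold lower, and Gpam, 1.68-fold lower. The test no longer called Plin1 and Cidec without control replicate 1, 2, 3 or 4 or treated replicate 2 or 3, or Gpam without treated replicate 3 (adjusted p up to 0.102).

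Among carbohydrate genes, few of glucose uptake, glycolysis and glycogen were called, and changes were found at the pyruvate gate and in insulin signalling. Pfkfb2, the cardiac enzyme that makes fructose 2,6-bisphosphate, an activator of glycolysis, rose 2.69-fold. Its values were 44.8, 44.2, 44.5 and 48.01 CPM in control and 150.1, 103.3 and 112 CPM in treated libraries (log2 fold change 1.43, SE 0.17, adjusted p = 0.000449), without overlap. Of 30 genes of glucose uptake, glycolysis and glycogen, 1 rose, Pfkfb2, and 2 fell, against 7.43% and 8.39% of all genes tested. The falls numbered 7 without control replicate 2 and 0 without control replicate 1 or 4 or treated replicate 2 or 3. The 2 falls were Ugp2, which makes UDP-glucose, 1.42-fold lower, and the monocarboxylate transporter Slc16a1, 1.64-fold lower. At the pyruvate gate, 6 of 9 genes fell and 0 rose: beside Pdk4 these included the kinase Pdk1 (-0.71), the phosphatase regulator Pdpr (-0.67) and the pyruvate carrier subunit Mpc1 (-0.74). Both the kinases that inhibit pyruvate dehydrogenase and a carrier that feeds it were thus among the falls. Insr, the insulin receptor gene, fell 1.86-fold, from 452, 423, 432 and 524 CPM in control to 255, 252 and 233 CPM in treated libraries (adjusted p = 0.00193). Irs2, its docking protein, rose 1.61-fold (adjusted p = 0.00989). The other members of the insulin list that fell were Pik3cb, Tbc1d4 and Pdpk1 (Pdpk1 was named after its values were seen), so that 4 of 22 fell and 1 rose. For the pyruvate gate and the insulin list, 1 gene each was called without treated replicate 3, and likewise in the fit with the intronic share. In the breakdown of branched-chain amino acids 11 of 18 genes fell and 0 rose (median -0.57). Without treated replicate 3 the falls numbered 4, and 0 were called with the intronic share as a covariate (median -0.28) or with treated replicate 1 as the only treated library (median -0.46). Bckdhb, a subunit of the rate-limiting dehydrogenase of that pathway, fell 1.93-fold (adjusted p = 0.0023). Single left-out libraries ended the calls of Irs2, Pdk1 and Pdpr without treated replicate 3, Mpc1 and Tbc1d4 without control replicate 1 or 4 or treated replicate 2 or 3, Pdpk1 and Ugp2 without control replicate 1 or 4 or treated replicate 1, 2 or 3, Pik3cb without control replicate 1 or treated replicate 3, and of Slc16a1 without control replicate 1, 3 or 4 or treated replicate 1, 2 or 3 (adjusted p up to 0.148).

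Most proteasome genes and some genes of autophagy fell. Bnip3, a mitophagy receptor induced by hypoxia (chr7:138890836-138909519), was at 411, 393, 392 and 549.6 CPM in control libraries and 88.3, 72.97 and 67.4 CPM in treated libraries. It fell 5.72-fold (log2 fold change -2.52, SE 0.21, adjusted p = 7.56e-05), and its groups did not overlap, as the naming rule required. Map1lc3b, the LC3 protein of autophagosome membranes, fell 1.97-fold, the cargo receptor Sqstm1 1.62-fold and Calcoco1, a cargo receptor for the endoplasmic reticulum, 1.64-fold (adjusted p from 0.00159 to 0.00464). Of 27 autophagy genes 9 fell, 1 rose and 17 did not pass. Their falls numbered 4 without treated replicate 3, 2 in the fit with the intronic share and 1 with treated replicate 1 as the only treated library. Of 31 proteasome subunits 24 fell and 0 rose, with a median of -0.52. Psmc1, an ATPase of the regulatory particle, was at 88.5, 70.8, 76.6 and 80.1 CPM in control and 41.9, 48.7 and 39.9 CPM in treated libraries (log2 fold change -0.86, SE 0.11, adjusted p = 0.000987). With the intronic share as a covariate 3 of the 31 were called, without treated replicate 3 the number was 8, and with treated replicate 1 as the only treated library it was 1.

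**Figure D4:**
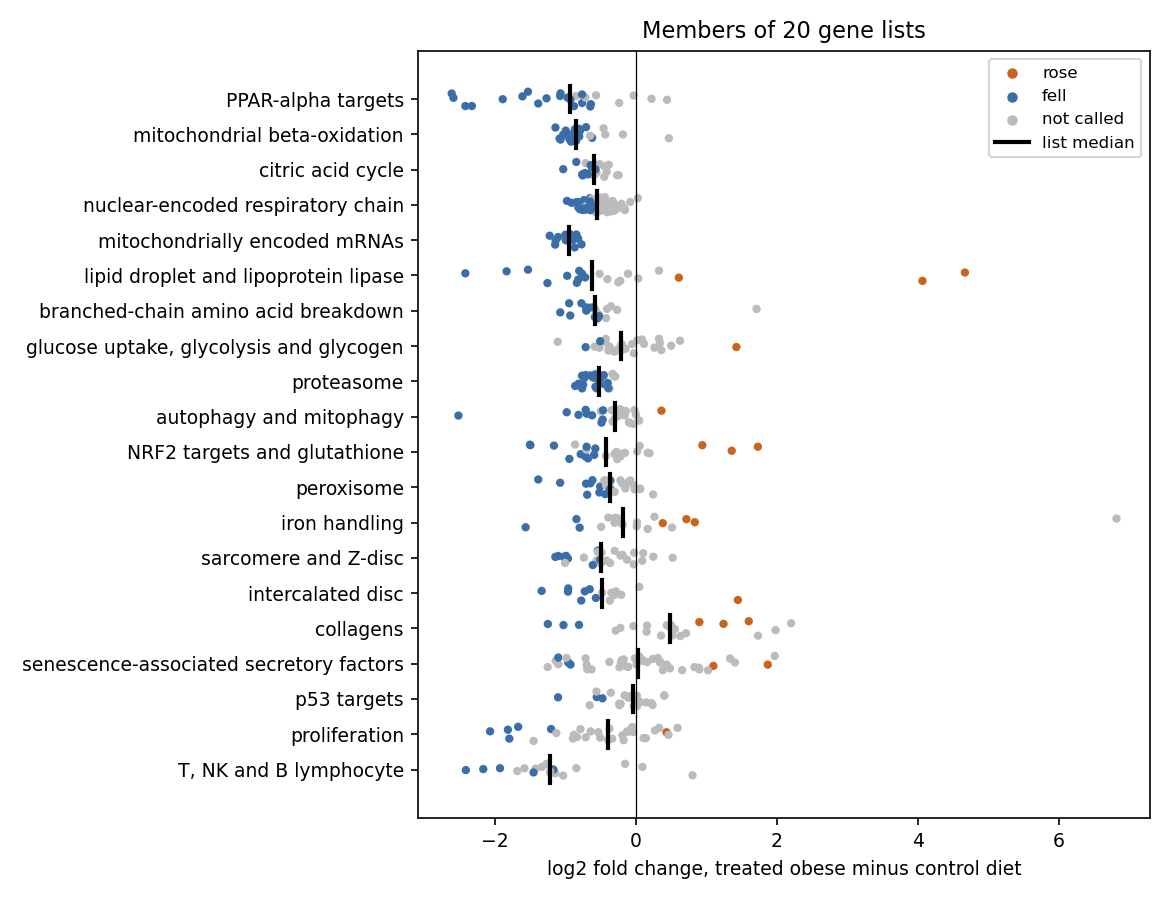
log2 fold change, treated obese minus control diet (x axis), of each tested member of 20 gene lists (y axis). Orange points rose, blue points fell, grey points were not called, and black bars are list medians, which lie below -0.5 for the PPAR-alpha, beta-oxidation, citric acid cycle, respiratory chain and proteasome lists.

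NRF2 targets and glutathione genes changed in both directions. Of 27 tested, 10 fell, 3 rose and 14 did not pass. The falls numbered 4 without treated replicate 3 and 2 in the fit with the intronic share. Gclm, the modifier subunit of the enzyme that starts glutathione synthesis, was at 50.3, 57.2, 50.7 and 56.2 CPM in control libraries and at 19.3, 18.9 and 18.6 CPM in treated libraries. The treated values were nearly equal, and the gene fell 2.83-fold (log2 fold change -1.50, SE 0.12, adjusted p = 7.53e-05). Cat, catalase, which breaks down hydrogen peroxide, was at 434, 321, 396 and 459 CPM in control and 153, 159 and 116 CPM in treated libraries, 2.82-fold lower (adjusted p = 0.00045). Gstm2, a glutathione transferase, fell 1.92-fold. Osgin1, a growth inhibitor induced by oxidative stress, rose 2.57-fold, from 1.88, 1.74, 2.24 and 2.23 CPM to 5.49, 5.34 and 4.75 CPM (adjusted p = 0.00145). In the peroxisome, which shortens very long fatty acids, 11 of 28 genes fell and 0 rose, among them Ehhadh, an enzyme of peroxisomal beta-oxidation, 2.61-fold lower. Without treated replicate 3 the falls numbered 2, and with the intronic share as a covariate or treated replicate 1 as the only treated library 0 were called. Of 22 cytosolic chaperones 4 rose and 1 fell, with a median of -0.24 and 13 members lower. None rose without treated replicate 2, without treated replicate 3 or with the atrial score, the mean log2 CPM of the atrial markers, as a covariate. The inducible Hsp70 genes Hspa1a and Hspa1b, near-identical copies that cannot be separated, rose 2.37-fold and 2.25-fold. In the unfolded protein and integrated stress responses 4 of 26 rose and 3 fell, against 7.43% and 8.39% of all genes tested. Without treated replicate 3 these counts were 1 and 0. Herpud1, a factor of protein degradation at the endoplasmic reticulum, was 2.09-fold higher and Mthfd2, a mitochondrial folate enzyme, 2.14-fold higher. Gdf15, a stress hormone, had a log2 fold change of 1.33 and did not pass (adjusted p = 0.0521). No call was made for Hspa1a, Hspa1b and Mthfd2 without treated replicate 2 or 3 (adjusted p up to 0.0705).

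Iron genes changed in both directions, with rises in uptake genes and falls in an exporter and a storage gene. Tfrc, the transferrin receptor, was at 14.9, 16.9, 15.2 and 14.96 CPM in control and 20.6, 26.7 and 29.1 CPM in treated libraries and rose 1.64-fold (adjusted p = 0.00618). Steap3, a ferrireductase that acts on iron taken up with transferrin, rose 1.78-fold. Slc40a1, ferroportin, the exporter of iron, went from 53.4, 47.2, 52.6 and 57.5 CPM to 21.2, 17.8 and 14.5 CPM, 2.96-fold lower (adjusted p = 0.00316), and Hfe, a partner of the transferrin receptor, fell 1.79-fold. Fth1, the ferritin heavy chain, named after its values were seen, was the other fall among 19 iron genes. Of these 3 rose and 3 fell, against 7.43% and 8.39% of all genes tested. With the intronic share as a covariate 1 iron gene rose and 0 fell. In the hypoxia list 3 of 20 genes rose and 3 fell, against 7.43% and 8.39% of all genes tested. Car9, a carbonic anhydrase, rose 5.12-fold, while Hif1a, the oxygen-regulated factor itself, fell 1.62-fold. Without 1 library, calls ended for Fth1 without treated replicate 3 (adjusted p up to 0.0738).

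Several clock genes differed, and Arntl was among the 8 largest falls taken by the naming rule. The other members of the clock lists differed by less. The sequences that follow are stretches at the start sites of a clock activator and of a pair of repressors that changed, taken from RefSeq for GRCm38.p6 and written in the direction of transcription, with matches to 3 clock motifs in capitals. They are shown because each holds the letters of a different clock motif.
Arntl, chr7:113207528-113207557, plus strand, 30 bases after the start, ROR element in capitals: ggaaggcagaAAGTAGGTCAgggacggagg
Per3, chr4:151044666-151044915, minus strand, 250 bases before the start, a pair of D-boxes in capitals: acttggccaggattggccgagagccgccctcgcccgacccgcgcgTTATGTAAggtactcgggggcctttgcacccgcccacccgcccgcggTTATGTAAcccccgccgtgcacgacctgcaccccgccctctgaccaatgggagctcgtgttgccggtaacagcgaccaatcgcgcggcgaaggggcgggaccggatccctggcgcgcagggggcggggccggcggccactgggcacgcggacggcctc
Cry1, chr10:85185055-85185304, minus strand, 250 bases before the start, E-box in capitals: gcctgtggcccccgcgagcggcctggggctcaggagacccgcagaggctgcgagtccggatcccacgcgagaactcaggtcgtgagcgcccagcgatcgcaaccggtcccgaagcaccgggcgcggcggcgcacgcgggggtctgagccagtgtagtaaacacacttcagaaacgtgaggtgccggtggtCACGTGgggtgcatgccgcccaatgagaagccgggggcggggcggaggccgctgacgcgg
The motifs were searched on both strands in windows of 300 bases, from 250 before to 50 after each start. The E-box CACGTG, bound by CLOCK and ARNTL, was in 7.15% of 32851 windows and in the windows of 7 of 21 clock genes. A gene with several windows counted if any of them held the motif, so shares of genes and of windows are not comparable. The D-box TTATGTAA, bound by DBP, TEF and HLF, was in 0.938% of windows and, among clock genes, in that of Per3. The ROR element, AAN followed at once by TAGGTCA (N is any base), read by ROR activators and NR1D repressors, was in 0.219% of windows and, among clock genes, in that of Arntl. The direct repeat of AGGTCA with 1 base between its copies, read by PPAR-alpha with its partner RXR, shares AGGTCA with the ROR element and was in 0.0396% of windows and in none of the windows of 23 PPAR-alpha targets. These matches describe the letters only.

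Among the activators, Arntl was at 6.397, 20.05, 13.5 and 17.2 CPM in control libraries and at 2.07, 1.305 and 1.93 CPM in treated libraries, 8.09-fold lower (log2 fold change -3.02, SE 0.34, adjusted p = 0.000449). Clock, its partner, was at 88.9, 94.8, 91.2 and 109 CPM in control and 49.4, 48.95 and 55.3 CPM in treated libraries, 1.87-fold lower (adjusted p = 0.000449), and Npas2, which can take the place of CLOCK, fell 2.18-fold (adjusted p = 0.00409). No treated library reached a control library in these genes, which for Arntl the naming rule required. The ROR activator gene Rora rose 1.42-fold (adjusted p = 0.0145). Among the repressors, Per2 was at 34.1, 32.7, 29.5 and 16.1 CPM in control and 123, 85.4 and 110.1 CPM in treated libraries, 3.78-fold higher (log2 fold change 1.92, SE 0.24, adjusted p = 0.000694). Per3 went from 47.8, 42.7, 47.5 and 27.1 CPM to 131, 107 and 113 CPM, 2.83-fold higher (adjusted p = 0.000676), and Cry1 from 7.08, 6.295, 6.18 and 6.73 CPM to 12.04, 11.5 and 12.9 CPM, 1.85-fold higher (adjusted p = 0.00747). Again the groups did not overlap, as for 27.9% of all genes tested. Nr1d2 rose 1.37-fold, and its relative Nr1d1, the repressor that acts on Arntl, was at 198, 212, 234 and 208 CPM in control and 55.6, 123 and 58.7 CPM in treated libraries, 2.69-fold lower (adjusted p = 0.0296), with treated replicate 2 the highest of its group (Nr1d1 was named after its values were seen). Of 10 repressors 4 rose and 1 fell, and of 6 activators 3 fell and 1 rose. Among 10 output factors 3 rose and 0 fell: Wee1, a kinase that delays mitosis, rose 3.12-fold, and the D-box factors Tef and Hlf 1.74-fold and 1.805-fold. Dbp, the third D-box factor, was not called (0.18, adjusted p = 0.765; named after its value was seen). The labels give no time of day for tissue collection. With the intronic share as a covariate 3 activators fell, 2 repressors rose and 0 output factors rose, and with treated replicate 1 alone 1 activator fell and 2 repressors rose. Calls were lost for Rora without treated replicate 3, Hlf without treated replicate 2 or 3, Nr1d1 without control replicate 1, 3 or 4 or treated replicate 1 or 3, and for Nr1d2 without control replicate 3 or 4 or treated replicate 1, 2 or 3 (adjusted p up to 0.124).

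**Figure D5:**
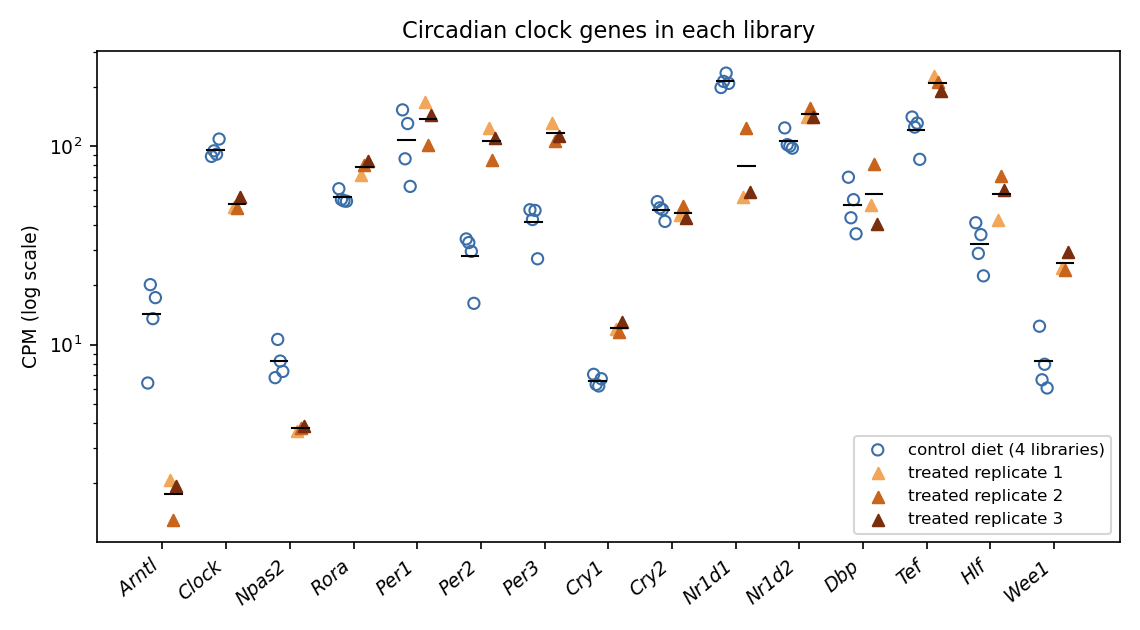
CPM on a log axis of 15 clock genes in 4 control libraries (open circles) and treated replicates 1 to 3 (triangles), with bars at the group means. Arntl falls from 14.3 to 1.77 CPM in the mean and Per2 rises from 28.1 to 106 CPM, while Dbp overlaps between groups.

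Among senescence genes the share of calls differed from list to list. Cdkn1a, the gene of the cell cycle brake p21, was at 36.7, 46.4, 47.1 and 41.8 CPM in control and 26.7, 12.4 and 20.9 CPM in treated libraries and fell 2.15-fold (log2 fold change -1.10, SE 0.21, adjusted p = 0.00678). Cdkn2a, the gene of p16, was too low to be tested, with 27 counts over the 4 control libraries and 10 over the 3 treated libraries. Of 15 senescence and cell cycle inhibitor genes, 4 fell and 0 rose, against 8.39% of all genes tested that fell. They included Hmgb1, 1.71-fold lower, and Hmgb2, 1.804-fold lower, chromatin proteins that senescent cells are known to lose. The list thus mixes such genes with cell cycle inhibitors such as Cdkn1a, and its count of falls gives no direction for senescence. Of 24 p53 targets 3 fell and 0 rose, against 8.39% and 7.43% of all genes tested. The p53 target falls numbered 1 without control replicate 1 or 4 or treated replicate 1 or 3. Of 44 genes of the secretory phenotype of senescent cells, 2 rose and 3 fell, against 7.43% and 8.39% of all genes tested. Their median was 0.03, against 0.05 over all genes. Among the falls, Cxcl12, a chemokine, fell 1.94-fold and Mmp14, a membrane-bound matrix protease, 1.901-fold. Igfbp5, an IGF-binding protein, rose 3.66-fold with values of 132, 445 and 451 CPM in treated libraries against 97.5, 92.9, 115 and 69.2 CPM in control libraries. Its treated replicates 2 and 3 were the highest libraries. In the fit with the intronic share 2 senescence genes, 1 p53 target and 0 secretory genes were called. Without treated replicate 1, 6 secretory genes rose, and without any other single library 0 rose. The median of the secretory list against the control means was -0.58 in treated replicate 1, 0.20 in treated replicate 2 and 0.22 in treated replicate 3. The test no longer called Igfbp5 without control replicate 1, 2, 3 or 4 or treated replicate 2 or 3 (adjusted p up to 0.145).

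Survival and drug-response genes were tested beside them. In the BCL-2 family 3 of 16 genes fell and 0 rose, against 8.39% and 7.43% of all genes tested. These falls ran from 1 to 3 with 1 library left out and numbered 1 with the intronic share as a covariate. Hrk, which promotes cell death, fell 3.44-fold, Bcl2a1b, a survival member with close copies, 6.56-fold and the death-promoting Bcl2l11 1.36-fold. Of 27 kinases that dasatinib inhibits, 5 fell and 2 rose, against 8.39% and 7.43% of all genes tested. The kinase falls numbered 1 with upper-quartile scaling or with the atrial score or intronic share as a covariate. They ran from 1 to 6 with 1 library left out. Yes1, a SRC family kinase, fell 1.79-fold (adjusted p = 0.00145), and Abl1 rose 1.52-fold (adjusted p = 0.00556). Ahr, the receptor for aromatic compounds, to which flavonoids can bind, was at 28.2, 28.8, 20.8 and 27.98 CPM in control and 12.4, 14.2 and 10.8 CPM in treated libraries, 2.12-fold lower (adjusted p = 0.0029). Its target Nqo1, also an NRF2 target, fell 2.24-fold, and the drug efflux pump Abcb1a 1.94-fold. Single left-out libraries ended the calls of Nqo1 without control replicate 1 or 4 or treated replicate 1 or 3, Bcl2a1b without control replicate 1 or 4 or treated replicate 1, 2 or 3, and of Bcl2l11 without control replicate 1, 3 or 4 or treated replicate 1, 2 or 3 (adjusted p up to 0.127).

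Contractile and intercalated disc genes that changed were mostly lower. Of 27 sarcomere and Z-disc genes 8 fell and 0 rose (median -0.49). Myoz2, a Z-disc protein that binds calcineurin, was at 616, 443, 545 and 647 CPM in control and 258, 273 and 234 CPM in treated libraries, 2.21-fold lower (adjusted p = 0.00111). Xirp1, an actin-binding protein of the intercalated disc, fell 1.95-fold, and Myom2, of the M-band, 2.14-fold. Myh7, the slow myosin heavy chain, did not differ detectably (-0.02, 95% interval from -0.50 to 0.45, adjusted p = 0.952). At the intercalated disc, which joins heart muscle cells, 7 of 15 genes fell and 1 rose. Gja1, connexin 43, the main ventricular gap junction protein, was at 315, 218, 273 and 389 CPM in control and 102.7, 152 and 100.3 CPM in treated libraries, 2.52-fold lower (log2 fold change -1.34, SE 0.23, adjusted p = 0.00359). Jup, plakoglobin, fell 1.94-fold, and Gja5, connexin 40 of atrium and conduction system, rose 2.72-fold. With treated replicate 1 as the only treated library, 0 members of the sarcomere and intercalated disc lists were called, and their medians were -0.43 and -0.51. In the fit with the intronic share 3 sarcomere genes fell and 1 rose (median -0.08), and 2 intercalated disc genes fell (median -0.27, against -0.48 in the first fit). Without treated replicate 3, 3 sarcomere genes and 5 intercalated disc genes fell. No call was made for Gja5 without control replicate 1, 3 or 4 or treated replicate 2 or 3 (adjusted p up to 0.12).

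Kcnc1, a fast potassium channel gene (chr7:46396497-46438704), was at 0.495, 0.660, 0.707 and 0.406 CPM in control libraries and 5.04, 4.09 and 5.12 CPM in treated libraries, 8.32-fold higher (log2 fold change 3.06, SE 0.29, adjusted p = 0.0002). It was low in the heart. Its groups did not overlap, which the naming rule required and which held for 27.9% of all genes tested. Of 25 potassium and sodium channel genes, 4 rose and 3 fell, against 7.43% and 8.39% of all genes tested. Kcnj8, a subunit of ATP-sensitive channels in vessel walls, was 1.79-fold lower. Pln, phospholamban, the brake on calcium uptake into the sarcoplasmic reticulum, fell 1.91-fold (adjusted p = 0.0285). Of 22 calcium-handling genes 2 fell and 1 rose, near the 8.39% and 7.43% of all genes tested. Adra1b, an alpha-1 adrenergic receptor, fell 2.46-fold (adjusted p = 0.00158). Of 22 adrenergic genes 4 fell and 2 rose, against 8.39% and 7.43% of all genes tested. Dbh, which makes noradrenaline, rose 5.36-fold, with 2.13, 2.32 and 3.79 CPM in treated libraries against 0.439, 0.287, 0.527 and 0.796 CPM in control libraries. Without 1 library, calls ended for Kcnj8 without treated replicate 3, and for Pln without control replicate 1, 3 or 4 or treated replicate 1 or 3 (adjusted p up to 0.131).

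Matrix genes changed in both directions. The basement membrane chains Col4a1 and Col4a2 fell 1.75-fold and 2.04-fold (adjusted p = 0.00609 and 0.00314), and Col5a3 fell 2.38-fold. Col16a1, a chain that sits on the surface of collagen fibrils, rose 2.37-fold (adjusted p = 0.00366). Of 22 collagens 3 rose and 3 fell, against 7.43% and 8.39% of all genes tested. With the intronic share as a covariate 1 rose and 0 fell. The rises numbered 6 without treated replicate 1 and 1 without control replicate 2, 3 or 4 or treated replicate 2 or 3. Col1a1, the main fibrillar collagen of scar tissue, had values of 67.04, 34.1, 51.5 and 50.2 CPM in control and 38.7, 85.5 and 81.9 CPM in treated libraries, which overlapped, and was not called (0.44, adjusted p = 0.426). Adamts4, a protease of matrix proteoglycans, fell 9.13-fold, from 1.16, 1.89, 1.02 and 1.56 CPM to 0.133, 0.165 and 0.158 CPM (adjusted p = 0.00245). Thbs2, a thrombospondin, fell 2.18-fold, and Fbn1, fibrillin 1, 2.28-fold. Of 33 other matrix genes 5 fell and 4 rose, against 8.39% and 7.43% of all genes tested. None rose without control replicate 1, 3 or 4 or treated replicate 2 or 3, and 1 rose without control replicate 2. The medians of the collagen list against the control means were 0.11, 0.59 and 0.71 in treated replicates 1, 2 and 3, so the replicates high in atrial and mesothelial markers were also the higher ones here. Fibroblast markers moved the same way: their summed level was 1248 to 1468 CPM in control libraries and 1173, 2332 and 2074 CPM in treated replicates 1, 2 and 3. The part of those cell types in the matrix results was not tested. Calls were lost for Fbn1 without treated replicate 3 (adjusted p up to 0.0509).

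Lymphocyte genes that changed were lower, while few macrophage genes were called. Of 19 lymphocyte genes 5 fell and 0 rose, with a median of -1.22. The falls numbered 10 without control replicate 2, 3 without control replicate 4 and 2 without control replicate 1 or treated replicate 3. In the fit with the intronic share (median -0.67) or with treated replicate 1 as the only treated library (median -1.65), 0 were called. Igkc, the kappa light chain of antibodies, was at 3.44, 2.88, 4.04 and 4.14 CPM in control and 0.695, 1.63 and 1.63 CPM in treated libraries, 2.73-fold lower (adjusted p = 0.0152), and the B cell gene Ms4a1 fell 5.32-fold. Immunoglobulin genes share sequence, which makes their separate values uncertain. Cx3cr1, the fractalkine receptor of monocytes and resident macrophages, was at 6.496, 3.23, 4.14 and 5.82 CPM in control and 0.636, 1.38 and 0.853 CPM in treated libraries, 5.12-fold lower (adjusted p = 0.00714). Of 22 macrophage genes 2 fell and 0 rose, near the 8.39% of all genes tested that fell. The other fall was Ly6c2, of circulating monocytes. The macrophage list had a median of 0.04, with 12 members higher and 10 lower. Its medians against the control means were -0.33, 0.36 and 0.25 in treated replicates 1, 2 and 3. Psmb8 and Psmb9, subunits of the immunoproteasome, fell 1.601-fold and 1.64-fold. They were among 4 falls and 1 rise in 25 genes of antigen presentation and interferon response, against 8.39% and 7.43% of all genes tested. Of the 25 genes, 0 were called without treated replicate 3 or with the intronic share as a covariate. Of 17 complement genes 4 rose and 1 fell. Their medians against the control means were -0.07, 0.83 and 1.01 in treated replicates 1, 2 and 3, so here too the replicates high in atrial and mesothelial markers were the higher ones, and their part in the result was not tested. Complement rises numbered 1 with treated replicate 1 as the only treated library, with the intronic share or the atrial score as a covariate (2 fell with the latter), and without control replicate 1, 3 or 4 or treated replicate 2 or 3, and 7 without treated replicate 1. Cfp, properdin, which stabilises the alternative pathway, was at 3.96, 3.74, 3.84 and 3.46 CPM in control and 7.75, 7.397 and 11.4 CPM in treated libraries, 2.36-fold higher (adjusted p = 0.000834). Of 31 proliferation genes 5 fell and 1 rose, against 8.39% and 7.43% of all genes tested. In this list 0 were called without treated replicate 3 or with the intronic share as a covariate. Top2a, a topoisomerase of dividing cells, fell 3.18-fold, and Mki67, the Ki-67 antigen, 3.47-fold. The test no longer called Psmb8 without treated replicate 3, Ms4a1 without control replicate 1 or treated replicate 2 or 3, Mki67 without treated replicate 1, 2 or 3, Top2a without control replicate 1 or treated replicate 1, 2 or 3, Ly6c2 without control replicate 1 or 4 or treated replicate 2 or 3, or Psmb9 without control replicate 4 or treated replicate 1, 2 or 3 (adjusted p up to 0.167).

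The largest rises were high mainly in treated replicates 2 and 3. Cilp2, a matrix protein of cartilage, was at 0.170, 0.115, 0.146 and 0.468 CPM in control libraries and 0.547, 26.1 and 34.2 CPM in treated libraries (6.52, adjusted p = 0.0404). Car3, a carbonic anhydrase of fat and slow muscle, was at 0.113, 0.0430, 0.146 and 0.390 CPM in control and 1.35, 11.3 and 10.2 CPM in treated libraries (5.48, adjusted p = 0.0293). Cpne5, one of the conduction system markers, was at 0.156, 0.402, 0.404 and 0.312 CPM and 0.872, 24.5 and 35.8 CPM in the same order. In all of them treated replicate 1 was the lowest treated library by a wide margin. The other large rises named by the rule were Nat8f3, Mlana, Lmntd1, Tmem163 and Alox8. None of the 12 atrial markers passed edgeR's test, although their median was 5.26 and 9 had an unadjusted p under 0.05. DESeq2 called 6 of them higher, limma voom 0, and edgeR called 6 without treated replicate 1. Nppa, atrial natriuretic peptide, was at 29.7, 34.6, 22.9 and 54.6 CPM in control and 34.3, 1116 and 2346 CPM in treated libraries (5.04, adjusted p = 0.0672). Nppb, B-type natriuretic peptide, had values of 55.6, 30.4, 19.9 and 158 CPM and 6.03, 26.7 and 30.5 CPM, which overlapped (-1.64, adjusted p = 0.241). Of 11 conduction markers 6 rose, of 10 mesothelial markers 5 rose, and of 13 white adipocyte markers 5 rose and 3 fell. Adipoq, the adipocyte hormone adiponectin, was at 0, 0, 0 and 0.0624 CPM in control and 0.237, 2.13 and 1.16 CPM in treated libraries, while Fabp4, a fatty acid binding protein of fat cells and endothelium, fell 2.79-fold (adjusted p = 0.000335). With treated replicate 1 alone 0 conduction and 0 mesothelial markers were called. The part of these cell types in the other rises was not tested. Single left-out libraries ended the calls of Nat8f3, Cilp2, Lmntd1, Tmem163, Cpne5, Alox8 and Car3 without control replicate 1, 2, 3 or 4 or treated replicate 2 or 3, and of Mlana without control replicate 1, 3 or 4 or treated replicate 3 (adjusted p up to 0.135).

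Genes with the smallest p-values that belong to none of the groups above were mostly falls. Hsd17b11, a short-chain dehydrogenase of lipid droplets, was at 112, 90.4, 98.5 and 111 CPM in control and 31.9, 32.5 and 25.2 CPM in treated libraries, 3.45-fold lower (log2 fold change -1.78, SE 0.14, adjusted p = 7.53e-05). Hist1h1c, a linker histone, fell 4.24-fold, Lmcd1, a LIM protein that restrains GATA6, 4.08-fold, and Prrg1, a membrane protein with a Gla domain, 2.22-fold. Cys1, cystin, a protein of primary cilia, rose 5.37-fold, from 2.604, 2.95, 2.703 and 2.25 CPM to 12.3, 13.9 and 16.1 CPM (adjusted p = 7.53e-05). Its groups did not overlap, as the naming rule required. Fam124b, Chrna2 and Cacng6 completed the largest falls, at -3.52, -2.68 and -2.55.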

How the data were processed

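RNA from mouse hearts was sequenced, and the deposited table held whole-number counts per Ensembl gene for all 11 libraries. Per the submitters' processing notes, the authors used cutadapt, HISAT2 and StringTie with genome build GRCm38. How counting treated strand is not stated in those notes, so a gene and its antisense partner, or close copies of a gene, may share counts. It is likewise not stated whether the deposited counts were tallied directly or estimated. Of 55487 identifiers, 55227 had a name in GENCODE M21, and for 113 symbols carried by more than 1 identifier the one with most counts was used.

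Genes were filtered with filterByExpr (minimum count 10, minimum total 15), scaled by TMM and tested with the robust quasi-likelihood method of edgeR 4.0.16 (R 4.3.3) on all 11 libraries in 3 groups, with 8 residual degrees of freedom and Benjamini-Hochberg adjustment over 23779 genes at a threshold of 0.05. The common biological variation coefficient was 0.259. Standard errors are log2 fold changes without sign over the square root of F. CPM values were computed from the counts with TMM-scaled library sizes, and library measures were compared by 2-sided exact permutation over 35 assignments, 18 tests in all.

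Lists held 1111 symbols in 60 groups, of which 1079 were tested and 85 stood in more than 1 list. The lists and the comparison were chosen with earlier results of these data known. Named genes are the 8 largest rises and falls and the next 8 smallest p among called genes of at least 1 CPM with groups that did not overlap, the 4 members of each list with the smallest p, and Cdkn1a, Cdkn2a, Gdf15, Nppa, Nppb, Myh7, Col1a1, Pdk4 and Tfrc. Not all genes taken by this rule are described, a few are not reported here, and those from outside it are marked as named after their values were seen. Alternatives covered scaling, filters, a replicate block, DESeq2 1.42.0, limma voom (limma 3.58.1), left-out libraries, covariates, gene types and depth. The fit was tested on simulated data before use. RefSeq windows were searched for motifs after several spellings had been tried.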

Additional observations from a re-analysis of the deposited data

Results flagged for a closer look

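Among the 150 tested genes named here, 10 had 1 control library whose gap to the nearest other control library took up most of the range of the group, by Dixon's 95% limit for 4 samples. Chance gives such a gap in about 5% of groups. Control replicate 2 was low for Calcoco1, at 146.0 CPM against 165.0 to 166.2 CPM in the other control libraries, and high for Tfrc, at 16.9 CPM against 14.9 to 15.2 CPM. This library also had the highest intronic share of the control group, at 0.590%. Control replicate 4 was high for Bnip3, at 549.6 CPM against 392.2 to 410.6 CPM, for Pfkfb2, at 48.0 CPM against 44.2 to 44.8 CPM, and for Cilp2, at 0.468 CPM against 0.115 to 0.170 CPM. Adiponectin (Adipoq) was at 0.0624 CPM in control replicate 4 and at 0 in the others. Control replicate 1 was high for the clock genes Nr1d2, at 123.7 CPM against 97.8 to 101.9 CPM, and Rora, at 61.1 CPM against 52.8 to 53.9 CPM. Control replicate 3 was low for Ahr, at 20.8 CPM against 27.98 to 28.8 CPM, and high for Crocc, at 3.19 CPM against 2.29 to 2.44 CPM. With the library in question left out, Cilp2 was no longer called (adjusted p = 0.0881), and the other 9 genes kept their calls.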

How the results depend on the processing

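Of 21 alternatives to the reported fit, which called 3760 genes, 15 gave counts within 1.5 times of it, from 2644 to 5128 (the latter with DESeq2). With the 7 libraries alone, without the obese hearts given vehicle, 22544 genes were tested and 3745 called, 3207 of them shared with the reported fit. Leaving out 1 library in turn gave 1011 to 4652 genes. Leaving out treated replicates 2 and 3 together gave 218, and the intronic share as a covariate gave 510; the cause was not tested. In every alternative the calls shared with the reported fit had the same direction. Of the 143 called genes named here, 97 kept their call with any 1 library left out and 38 under all 21 alternatives. The signs of uncalled genes were less stable. Myh7 (-0.02) was above 0 with upper-quartile scaling (0.042), a filter of 1 CPM (0.014), the 7 libraries alone (0.0026), limma voom (0.0052), the atrial score (0.056) or intronic share (0.43) as a covariate, and protein-coding genes alone (0.041), and ran from -0.17 to 0.18 with 1 library left out. Dbp ran from -0.16 to 0.38 with 1 library left out. With treated replicate 1 as the only treated library, Col1a1 was at -0.38 and Nppa at -0.037. The labels do not say whether shared replicate numbers pair the libraries. Deviations of same-numbered libraries correlated at -0.01, -0.23 and 0.06, and those of other pairs at -0.11 to 0.16. So few pairs cannot decide it. With the replicate number as a block 2690 genes were called, 2466 of them shared, and 8 of the 143 named genes lost their call. Depth limits the lowest genes, of which Cdkn2a could not be tested, and 3 treated libraries limit every result.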

Other observations

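A total of 114 genes, 52 higher and 62 lower in treated hearts, were called in the main comparison and in each of the 21 alternatives, including the fit with treated replicate 1 as the only treated library. Genes that are not protein-coding or lie on the mitochondrial chromosome were left out of some alternatives, so they could not be among the 114. The genes named here were chosen from these 114 after their values were seen. Being called in all fits is how they were found, so it supports nothing about them. Aqp7, a channel through which glycerol passes the cell membrane, stood in none of the gene lists. It went from 81.5, 71.3, 67.8 and 81.5 CPM in control libraries to 24.8, 15.8 and 11.4 CPM in treated libraries, 4.36-fold lower (adjusted p = 0.000371). The cold-inducible RNA-binding genes Cirbp and Rbm3 both fell: Cirbp from 42.1, 32.9, 47.6 and 38.8 CPM to 17.5, 18.2 and 12.4 CPM (adjusted p = 0.000676), and Rbm3 from 42.5, 39.1, 40.1 and 35.9 CPM to 18.9, 23.8 and 26.4 CPM (adjusted p = 0.0025). Bdnf, a neurotrophin, fell 2.502-fold, from 14.8, 13.02, 11.4 and 13.1 CPM to 5.72, 6.83 and 3.17 CPM.

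Several of the rises among the 114 genes were at low levels. Vgll2, a cofactor of TEAD factors known from skeletal muscle, was at 0.0708, 0.100, 0.0785 and 0.140 CPM in control and 1.01, 2.58 and 3.52 CPM in treated libraries (24.2-fold higher, adjusted p = 0.000392). The collagen genes Col11a2, Col20a1 and Col27a1, which were in no list, rose 4.47-fold, 3.21-fold and 3.63-fold. Rfx2, a transcription factor of ciliated cells, was at 4.42, 3.198, 3.601 and 3.57 CPM in control and 9.08, 12.6 and 15.96 CPM in treated libraries, 3.398-fold higher (adjusted p = 0.000517). Its relative Rfx1 rose 1.995-fold, and so did Crocc, of the ciliary rootlet, 2.27-fold, Rpgrip1l, of the base of the cilium, 1.94-fold, and Cfap74, of motile cilia, 3.45-fold. In each of these genes no treated library overlapped a control library, as for 27.9% of all genes tested. They were taken from genes called in every fit after their values were seen, so this adds no support. They were not tested as a group.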
